A study of Mus musculus with 8 samples.

Results

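The growth hormone axis was examined in the hypothalamus of female mice through 10 genes, which were chosen by name for their role and found by their Ensembl identifiers among the 55890 genes of the count table. They were the peptide genes *Ghrh* and *Sst*, the somatostatin receptors *Sstr1*, *Sstr2* and *Sstr3*, the ghrelin receptor *Ghsr*, the growth hormone receptor *Ghr*, the prolactin receptor *Prlr*, and *Igf1* with its receptor *Igf1r*. Poly(A) RNA from whole hypothalamus was sequenced from mice 16 weeks old of 2 genotypes, with 4 pools per genotype and the RNA of 2 animals in each pool. POMC-C451Af/f mice were homozygous for a floxed allele of estrogen receptor alpha that, in cells where Cre is expressed from the *Pomc* promoter, yields a receptor mutated at its palmitoylation site and unable to signal from the cell membrane. Controls were littermates homozygous for the same floxed allele without Cre according to the methods of the study, whereas the labels call them wild-type, so the effect of Cre alone cannot be told apart from that of the mutant receptor here. Each value is an average over all cells of the tissue. The 10 transcripts were compared between the 2 genotypes and followed from pool to pool.

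The total estimated count per pool ranged from 36095253 to 40498166 (median 36608051) in POMC-C451Af/f and from 37841365 to 48942116 (median 41723908) in controls. Levels are given as CPM, which scale each count by the total of its pool after TMM normalization. *Esr1*, the gene that carries the mutation, stood at 11.6, 12.2, 9.997 and 10.8 CPM in the 4 POMC-C451Af/f pools and at 12.3, 12.8, 11.6 and 16.0 CPM in the 4 control pools, each in the order of the replicate numbers, as are all values by pool that follow. Its log2 fold change of POMC-C451Af/f over control was -0.23 (SE 0.104, unadjusted p = 0.0462, adjusted p = 0.878 by edgeR, exact permutation p = 0.0857), and it was -0.13 without control replicate 4. Counts per gene do not read the altered codon, so this level does not check the genotype. *Pomc* stood at 49.5, 50.2, 35.8 and 30.6 CPM in POMC-C451Af/f and at 98.9, 49.7, 50.5 and 50.8 CPM in controls, and the high control pool was replicate 1. Its log2 fold change was -0.59 (SE 0.237, unadjusted p = 0.0319, adjusted p = 0.878 by edgeR, exact permutation p = 0.0571). Without control replicate 1, the pool highest in the pituitary genes given next, the value was -0.28 (edgeR unadjusted p = 0.0971, adjusted p = 1). POMC-C451Af/f replicates 1 and 4, where *Gh* and *Prl* were also above their levels in the other controls, had *Pomc* at 49.5 and 30.6 CPM. The pituitary also expresses *Pomc*, and its part in these values was not tested.

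Marker genes of neighbouring tissues differed in level between pools, for a reason that was not tested. All 10 genes of a hypothalamus list were detected in every pool, led by *Pmch*, the gene of melanin-concentrating hormone, at a mean of 464 CPM. Control replicate 1 stood apart through anterior pituitary genes: *Gh* reached 410 CPM there and 4.52 to 23.5 CPM in the other controls, and *Prl* reached 1013 CPM there and 10.7 to 68.8 CPM in the others. In POMC-C451Af/f *Gh* was at 52.4, 8.54, 3.875 and 46.6 CPM and *Prl* at 163, 16.2, 7.83 and 135 CPM. A thalamus list, led by *Ntng1*, summed to 407 CPM in control replicate 2 and 420 CPM in POMC-C451Af/f replicate 3, the highest of the 8 pools, and to 111 CPM in control replicate 1, the lowest.

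As background, arcuate neurons release growth hormone-releasing hormone, the product of *Ghrh*, which drives growth hormone secretion from the pituitary, and periventricular neurons release somatostatin, the product of *Sst*, which restrains it. Ghrelin acts on both the pituitary and arcuate neurons through the receptor encoded by *Ghsr*. Growth hormone and IGF1 feed back on these neurons, somatostatin receptors are one route of that feedback, and the prolactin receptor is a cytokine receptor of the same class as the growth hormone receptor.

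The promoters of the peptide genes are shown because their transcripts tended to be high in the same pools, a relation that did not pass the adjustment over pairs given below. RefSeq promoter windows on GRCm38.p6 were found for 9 of the 10 genes, in 14 windows, and each was read over the 250 bases before the transcription start. For *Ghrh* the window shown, chr2:157337427-157337676 on the minus strand, lies before the downstream one of 2 annotated starts. For *Sst* the window is chr16:23890845-23891094 on the minus strand, and the GENCODE gene model reaches into it, to position 23890958. Capitals mark matches to TGACGTCA (the cyclic AMP response element), TAATTA (a homeodomain core) or TATAAA (the core of the TATA box), each searched on both strands.
Ghrh: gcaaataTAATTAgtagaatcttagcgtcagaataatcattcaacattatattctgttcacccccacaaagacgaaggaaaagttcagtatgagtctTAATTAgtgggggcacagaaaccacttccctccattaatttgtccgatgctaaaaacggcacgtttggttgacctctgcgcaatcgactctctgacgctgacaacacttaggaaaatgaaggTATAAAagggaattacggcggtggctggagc
Sst: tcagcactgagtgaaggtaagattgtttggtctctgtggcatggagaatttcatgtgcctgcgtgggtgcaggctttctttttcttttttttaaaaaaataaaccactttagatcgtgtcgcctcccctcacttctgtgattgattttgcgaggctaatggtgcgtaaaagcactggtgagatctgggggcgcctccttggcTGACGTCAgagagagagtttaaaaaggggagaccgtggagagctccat
The *Ghrh* window holds TAATTA at 243 to 238 and at 153 to 148 bases before the start and TATAAA at 31 to 26 bases, and no match overlaps another. The *Sst* window holds TGACGTCA at 48 to 41 bases before the start. TGACGTCA is in 1.55% of 32851 mouse promoter windows of this length, TAATTA in 4.84% and TATAAA in 12.4%. Among the other windows, that of *Sstr2* holds TGACGTCA at 58 to 51 bases and one of *Ghr* holds TATAAA at 188 to 183 bases. The palindromic estrogen response element GGTCANNNTGACC is in 0.0639% of all windows and in 0 of the 14 read here. A match is a description of the letters and shows no binding.

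The level of each transcript was compared per kilobase of its longest annotated transcript. *Sst* was the most abundant of the 10 genes, at 175 ± 22.5 CPM per kilobase in controls (SD, n = 4), and *Ghrh* followed at 9.41 ± 2.34. *Sstr1* (7.07 ± 0.397), *Sstr2* (6.43 ± 0.434), *Igf1r* (6 ± 0.204) and *Ghr* (5.52 ± 0.695) came next, and these neighbours had ranges that overlapped over the 8 pools, as did *Ghrh* with *Sstr1*. *Sstr3* stood at 3.11 ± 0.444, *Prlr* at 2.59 ± 0.143, *Ghsr* at 1.71 ± 0.134 and *Igf1* at 0.760 ± 0.138 CPM per kilobase. The steps from *Sst* to *Ghrh*, from *Ghr* to *Sstr3*, from *Prlr* to *Ghsr* and from *Ghsr* to *Igf1* were free of overlap in the 8 pools. With merged exon length in place of the longest transcript, 6 of the 10 genes kept their place in the order, and *Ghr*, which has long alternative exons, fell to 2.55 CPM per kilobase, below *Sstr3* in 7 of 8 pools. The step from *Prlr* to *Ghsr* was also lost with that length, since *Prlr* was then above *Ghsr* in 4 of 8 pools.

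**Figure D1:**
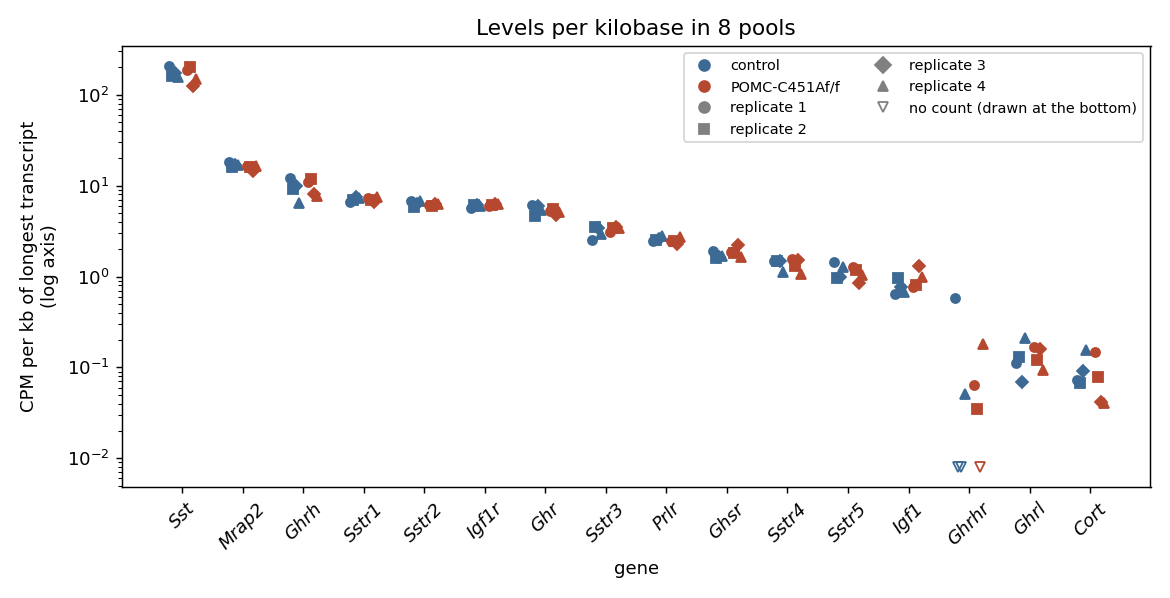
CPM per kilobase of the longest transcript on a log axis, for the 10 axis genes and 6 further genes of the axis, with 1 point per pool coloured by genotype and shaped by replicate; open triangles at the bottom mark pools with no count. *Sst* stands above the rest in every pool, and *Ghrhr*, *Ghrl* and *Cort* lie near the limit of detection.

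Between the genotypes, none of the 10 axis genes was called by edgeR's quasi-likelihood test under the thresholds of FDR 0.05 and a log2 fold change beyond 0.5 either way (0 of 10). Over all 18637 tested genes 4 were called, which is 0.0215%. At an unadjusted p under 0.05 edgeR gave 0 of the 10 axis genes and 950 of all tested genes (5.1%), of which 446 were lower (2.39%) and 504 higher (2.7%) in POMC-C451Af/f, and DESeq2 also called 0 of the 10 and gave 0 at an unadjusted p under 0.05. The groups did not overlap for 0 of the 10 axis genes and for 519 of all tested genes (2.78%). Each of the 10 was abundant enough to be tested. The fitted log2 fold change was below 0 for 4 of the 10, against 9238 of 18637 tested genes (49.6%), and the median was 0.019, against 0.0009 over all tested genes. The 95% interval lay within 0.5 log2 either way for 9 of the 10, all but *Igf1*, and for 74.9% of all tested genes. The 4 genes called, named after their values were seen, were *Efr3b*, *Myo7a*, *Mrpl48-ps* and *Gm44675*, and none of them is in a list used here.

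**Figure D2:**
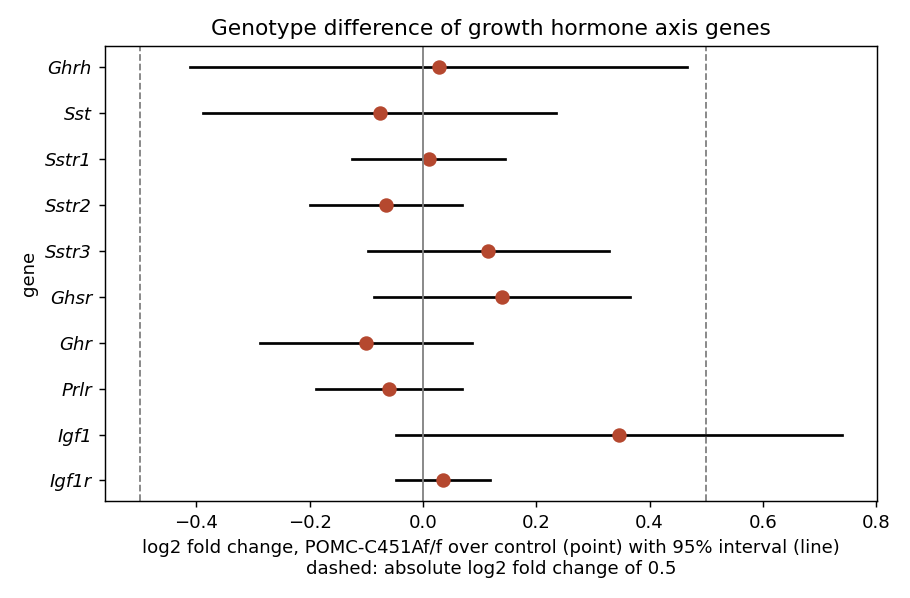
Log2 fold change of POMC-C451Af/f over control (points) with 95% intervals (lines) from edgeR for the 10 axis genes; dashed lines mark an absolute log2 fold change of 0.5. Every interval includes 0, and only that of *Igf1* crosses a dashed line, reaching 0.74.

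*Ghrh*, the releasing peptide, was at 5.63, 6.13, 4.13 and 3.92 CPM in POMC-C451Af/f and at 6.25, 4.70, 5.13 and 3.34 CPM in controls. The genotypes overlapped over nearly their whole range, and the highest and the lowest pool were both controls. The group means were 4.95 ± 1.09 and 4.86 ± 1.21 CPM (SD, n = 4), and the log2 fold change was 0.028 (SE 0.198, 95% interval -0.41 to 0.47, adjusted p = 0.99 by edgeR, exact permutation p = 0.886). Its sign depended on single pools, from -0.11 without control replicate 4 to 0.17 without control replicate 1. When the fit also held the mean level of a midbrain dopaminergic list it was 0.43 (edgeR unadjusted p = 0.0651, adjusted p = 1), and with the mean of the hypothalamus list instead, a setting chosen after seeing the data, it was 0.30 (edgeR unadjusted p = 0.0693, adjusted p = 1). All 8 genes of the midbrain list were themselves fitted higher in POMC-C451Af/f, so a fit that holds it separates genotype from the list poorly. *Ghrh* rested on 126 to 252 counts per pool, and its biological variation was larger than that of 88.4% of tested genes, and differences inside the interval are compatible with these pools. In bulk RNA, fewer *Ghrh* cells and less RNA per cell cannot be told apart, and the same holds for every gene below.

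*Sst*, the inhibiting peptide, was at 136, 146, 89.7 and 108 CPM in POMC-C451Af/f and at 149.5, 117, 126 and 113 CPM in controls. POMC-C451Af/f replicate 3 was the lowest pool and control replicate 1 the highest, and replicates 1 and 2 of POMC-C451Af/f stood above 3 of the 4 controls. The log2 fold change was -0.077 (SE 0.141, 95% interval -0.39 to 0.23, adjusted p = 0.951 by edgeR, exact permutation p = 0.629). Without POMC-C451Af/f replicate 3 it was 0.039, and without POMC-C451Af/f replicate 2 it was -0.19. It was 0.23 (edgeR unadjusted p = 0.079, adjusted p = 1) when the fit held the midbrain list and 0.16 (edgeR unadjusted p = 0.00358, adjusted p = 1) when it held the hypothalamus list, the second chosen after seeing the data. The CPM of *Sst* over that of *Ghrh* within a pool was 24.3 ± 2.34 in POMC-C451Af/f and 26.8 ± 4.73 in controls (SD, n = 4), and it was highest in control replicate 4, at 33.9, the pool in which *Ghrh* was lowest.

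**Figure D3:**
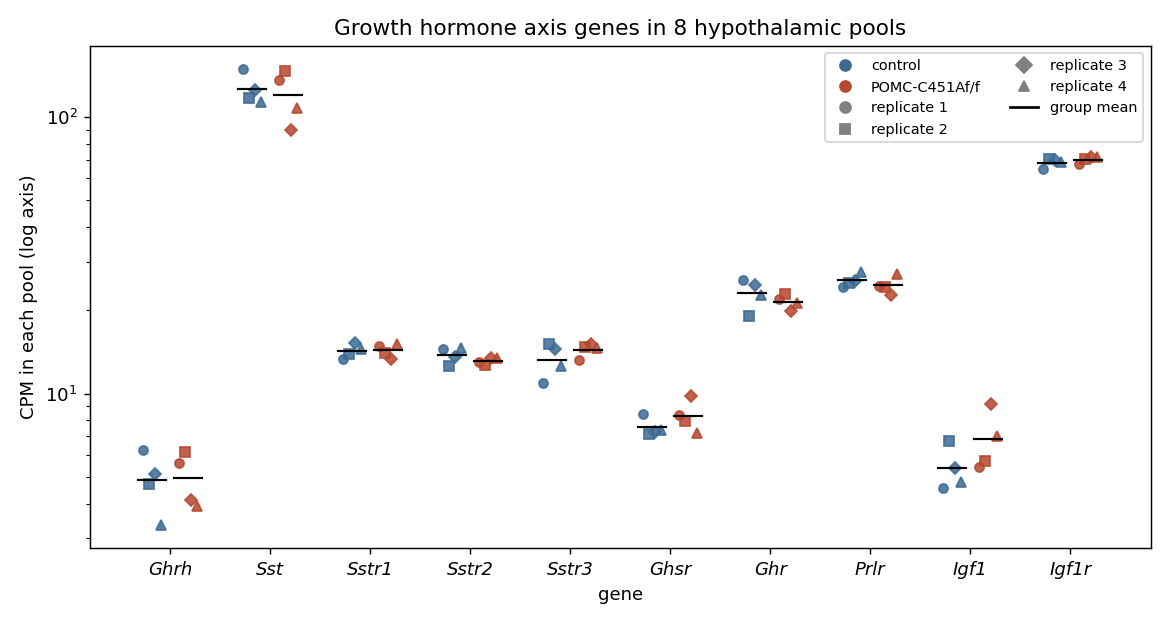
CPM of the 10 axis genes in each pool on a log axis, with controls in blue, POMC-C451Af/f in red, a symbol for each replicate and a black line at each group mean. Within every gene the genotypes overlap, and *Ghrh*, *Sst* and *Igf1* spread more between pools than *Igf1r*.

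Of the somatostatin receptors, through which the peptide inhibits its target neurons, *Sstr1* and *Sstr2* varied less between pools than *Sstr3*. *Sstr1* ranged from 13.4 to 15.2 CPM over the 8 pools, with means of 14.4 ± 0.782 CPM in POMC-C451Af/f and 14.2 ± 0.800 CPM in controls (SD, n = 4). Its log2 fold change was 0.010 (95% interval -0.13 to 0.15). *Sstr2* ranged from 12.6 to 14.6 CPM, with a log2 fold change of -0.066 (95% interval -0.20 to 0.068), which ran from -0.11 to -0.040 without single pools. The genotypes overlapped for both receptors. *Sstr3*, a receptor of neuronal primary cilia, was at 13.2, 14.8, 15.1 and 14.6 CPM in POMC-C451Af/f and at 10.9, 15.1, 14.5 and 12.6 CPM in controls. Control replicate 1 was the lowest pool, and without it the log2 fold change of *Sstr3* went from 0.12 (95% interval -0.097 to 0.33) to 0.032.

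*Ghsr*, the receptor through which ghrelin raises growth hormone release and food intake, was at 8.35, 7.98, 9.77 and 7.20 CPM in POMC-C451Af/f and at 8.44, 7.13, 7.28 and 7.39 CPM in controls. The pool with the highest value was POMC-C451Af/f replicate 3, and the other 3 pools of that genotype lay between 7.20 and 8.35 CPM, among the controls. The log2 fold change was 0.14 (SE 0.102, 95% interval -0.086 to 0.37, adjusted p = 0.878 by edgeR) and was 0.054 without POMC-C451Af/f replicate 3.

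*Ghr*, which transmits growth hormone feedback, was at 22.0, 22.9, 19.9 and 21.2 CPM in POMC-C451Af/f and at 25.7, 19.1, 24.7 and 22.7 CPM in controls. Both pools highest in the thalamus list, control replicate 2 and POMC-C451Af/f replicate 3, were the lowest in *Ghr*. The log2 fold change was -0.10 (SE 0.0845, 95% interval -0.29 to 0.086, adjusted p = 0.889 by edgeR). Without single pools it ran from -0.18 without control replicate 2 (edgeR unadjusted p = 0.0149, adjusted p = 0.781) to -0.047 without control replicate 1 (edgeR unadjusted p = 0.595). The adjusted values over all settings ran from 0.66 to 1. *Prlr*, which conveys prolactin feedback to hypothalamic dopamine neurons among others, was at 24.6, 24.2, 22.7 and 27.0 CPM in POMC-C451Af/f and at 24.2, 25.2, 25.6 and 27.6 CPM in controls. Its groups overlapped, with a log2 fold change of -0.060 (95% interval -0.19 to 0.069), which ran from -0.11 to -0.024 without single pools. Choroid plexus epithelium also expresses *Prlr*. Of the list that defines it, *Ttr* was at 0.695 to 7.47 CPM, the most abundant gene was *Clic6* at a mean of 18.4 CPM, and no gene was at 0 in every pool. *Prlr* tended to be low where the mean of this list was high, with r = -0.698 (exact permutation p = 0.0519, adjusted p = 0.275) and rho = -0.595 (exact permutation p = 0.132, adjusted p = 0.66). This r was -0.334 in POMC-C451Af/f and -0.981 in controls. Without control replicates 1 and 4, the 2 pools farthest from the median of the list, it was -0.433. With that mean as a covariate the log2 fold change of *Prlr* was -0.018.

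*Igf1* showed the largest fitted difference of the 10 genes, which did not pass the test. It was at 5.43, 5.72, 9.18 and 7.01 CPM in POMC-C451Af/f and at 4.54, 6.72, 5.40 and 4.79 CPM in controls. POMC-C451Af/f replicates 3 and 4 were above all controls, replicates 1 and 2 were below control replicate 2, and the groups overlapped. The log2 fold change was 0.35 (SE 0.178, 95% interval -0.047 to 0.74), with an adjusted p = 0.878 and an unadjusted p = 0.0784 by edgeR and an exact permutation p = 0.143. It was 0.17 without POMC-C451Af/f replicate 3 and 0.47 without control replicate 2 (edgeR unadjusted p = 0.0253, adjusted p = 0.781), and the adjusted values ran from 0.532 to 1 over all settings. With the mean of a list as a covariate the log2 fold change of *Igf1* was 0.13 for the midbrain list and 0.27 for the choroid plexus list, and, in settings chosen after seeing the data, 0.19 for the thalamus list and 0.078 for the hypothalamus list. *Igf1r*, the receptor that IGF1 activates, was the steadiest of the 10, between 65.1 and 71.5 CPM in the 8 pools, with a log2 fold change of 0.035 (95% interval -0.048 to 0.12), which ran from 0.011 to 0.052 without single pools.

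Of the 10 remaining hormones, receptors and partners of the axis, 5 were too scarce to be tested. *Ghrhr*, the pituitary receptor of the releasing peptide, had 36 counts or fewer in every pool, and its 0.893 CPM in control replicate 1, the pool richest in pituitary transcripts, was its highest value. *Cort* had 1 to 4 counts per pool, *Ghrl* 3 to 7, *Leap2* 0 to 1 and *Mboat4*, the enzyme that acylates ghrelin, 2 to 10. *Sstr4* and *Sstr5* were detected at 1.502 to 2.22 and 2.30 to 3.995 CPM. *Mrap2*, an accessory protein of the ghrelin and melanocortin receptors, was the most abundant of these partners, at 33.6 CPM in POMC-C451Af/f and 35.9 CPM in controls (log2 fold change -0.096, 95% interval -0.21 to 0.022, adjusted p = 0.878 by edgeR). None of the 5 tested genes of the hormone list and of the list of receptors and partners was called, and the fitted values of all 5 were below 0, with the largest those of *Gh* (-2.01, SE 1.25) and *Prl* (-1.78, SE 1.34). Without control replicate 1 they had the other sign, at 1.098 and 1.35.

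The signalling genes downstream of the growth hormone and prolactin receptors were all tested, and 0 of 12 were called, with 8 fitted higher and 4 lower and a median of 0.034. The highest of them in abundance was *Ptpn11*, a phosphatase, at 219 CPM. *Socs2*, which growth hormone induces and which dampens its receptor, was the only one with an unadjusted p under 0.05 (5.1% of all tested genes). It was at 13.04, 12.8, 16.7 and 13.3 CPM in POMC-C451Af/f and at 12.4, 13.3, 9.84 and 9.88 CPM in controls. The log2 fold change of *Socs2* was 0.30 (SE 0.119, 95% interval 0.038 to 0.56, adjusted p = 0.878 by edgeR, exact permutation p = 0.0857). Over all settings the log2 fold change of *Socs2* ran from 0.20 to 0.39 and the adjusted p from 0.493 to 1. Its unadjusted p was 0.00874 without control replicate 2 and 0.0143 by DESeq2, but 0.0952 without POMC-C451Af/f replicate 3, the pool highest in *Socs2*, 0.0852 and 0.0808 without control replicates 3 and 4, and 0.0503 to 0.137 with a replicate block or with the mean of a marker list as a covariate. The other genes of growth hormone response in the list stood closer: *Cish* at 9.35 and 8.78 CPM, *Stat5b* at 88.8 and 92.0 CPM and *Stat3* at 85.7 and 90.6 CPM in POMC-C451Af/f and controls.

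Of the IGF ligands, binding proteins and receptors, 18 of 20 were tested and 0 were called, with 8 fitted higher and 10 lower and a median of -0.008. By edgeR 2 of the 18 had an unadjusted p under 0.05 (5.1% of all tested genes), *Igfbp5* and *Irs4*. *Igfbp5*, the most abundant binding protein, was at 279, 254, 282 and 254 CPM in POMC-C451Af/f and at 237, 225, 229 and 236 CPM in controls. All 4 POMC-C451Af/f pools were above all 4 controls, as they were for *Stc1* of the same list (2.78% of all tested genes had no overlap). The log2 fold change of *Igfbp5* was 0.21 (SE 0.0416, 95% interval 0.12 to 0.30, unadjusted p = 0.00046, adjusted p = 0.451 by edgeR), and the exact permutation p of 0.0286 is the smallest that 4 pools against 4 can give. DESeq2 gave *Igfbp5* an adjusted p = 0.00606 at a log2 fold change of 0.21, under the size required of a call, and over all settings the adjusted p ran from 0.00606 to 1. *Irs4*, an insulin receptor substrate of the hypothalamus, was at 123, 119, 103 and 107.5 CPM in POMC-C451Af/f and at 139.7, 123, 140.3 and 143 CPM in controls. Only replicate 1 of POMC-C451Af/f exceeded a control, replicate 2, and the log2 fold change of *Irs4* was -0.27 (SE 0.0655, 95% interval -0.41 to -0.12, unadjusted p = 0.00186, adjusted p = 0.878 by edgeR). DESeq2 gave *Irs4* an unadjusted p = 6.28e-05, and its lowest adjusted p over all settings was 0.0593.

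Transcription factors of arcuate and periventricular neurons, among which the peptide neurons lie, were fitted lower in 12 of 12 cases (49.6% of all tested genes were), with a median of -0.19 and 2 at an unadjusted p under 0.05 (5.1% of all tested genes), and 0 were called. The exact permutation p of the mean of this list was 0.2. *Dlx1* was at 38.1 to 46.1 CPM in POMC-C451Af/f and at 48.1 to 53.7 CPM in controls, with no overlap (2.78% of all tested genes had none). Its log2 fold change was -0.24 (SE 0.0604, adjusted p = 0.878 by edgeR). *Dlx2* was at 11.2 to 13.7 and 14.4 to 17.2 CPM, also with no overlap, with a log2 fold change of -0.30 (SE 0.0771, adjusted p = 0.878 by edgeR). *Otp*, the most abundant of this list, ranged from 38.4 to 60.05 CPM in POMC-C451Af/f and from 49 to 65.95 CPM in controls. The hypothalamus list, which shares *Otp* and *Nkx2-1* with it, was fitted lower in 10 of 10 cases with a median of -0.22, and the exact permutation p of its mean was 0.257. Its summed level was 1150, 1340, 806 and 1030 CPM in POMC-C451Af/f and 1570, 1140, 1360 and 1100 CPM in controls. With the mean of the hypothalamus list as a covariate, a setting chosen after seeing the data, the log2 fold change was -0.19 for *Dlx1*, -0.28 for *Dlx2* and 0.011 for *Otp*, which is itself in that list. With the mean of the midbrain list instead it was -0.19 for *Dlx1* (edgeR unadjusted p = 0.0382, adjusted p = 1), -0.20 for *Dlx2* (edgeR unadjusted p = 0.0655, adjusted p = 1) and 0.080 for *Otp*. With both pools highest in the thalamus list left out *Dlx2* was at -0.20 (edgeR unadjusted p = 0.016, adjusted p = 0.989).

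For the peptides, pools of the same genotype differed by more than the genotype means did. *Ghrh* and *Sst* tended to be high in the same pools, with Pearson r = 0.811 (exact permutation p = 0.0151, adjusted p = 0.152) and Spearman rho = 0.905 (exact permutation p = 0.00456, adjusted p = 0.0684) among 45 pairs of axis genes. Within genotypes r was 0.843, and without the 2 pools farthest from the median of *Ghrh*, control replicates 1 and 4, it was 0.909. *Sst* followed the mean of the hypothalamus list with r = 0.935 (exact permutation p = 0.000942, adjusted p = 0.0526) and rho = 0.929 (exact permutation p = 0.00223, adjusted p = 0.1) among 90 relations. Within genotypes this r was 0.981, and without the 2 pools farthest from the median of the list, control replicate 1 and POMC-C451Af/f replicate 3, it was 0.789. With the same list *Ghrh* had r = 0.679 (exact permutation p = 0.0591, adjusted p = 0.296) and rho = 0.833 (exact permutation p = 0.0154, adjusted p = 0.327), and r was 0.82 within genotypes and 0.666 without those pools. Without single pools, settings chosen after seeing the data, the r of *Ghrh* ran from 0.569 to 0.862, the highest without control replicate 4. Other pairs of axis genes reached values of similar size. *Sstr3* and *Igf1r* had r = 0.929 (exact permutation p = 0.00382, adjusted p = 0.152) and rho = 0.881 (exact permutation p = 0.00724, adjusted p = 0.0814). *Ghsr* and *Prlr* varied in opposite directions, with r = -0.842 (exact permutation p = 0.00685, adjusted p = 0.152) and rho = -0.714 (exact permutation p = 0.0576, adjusted p = 0.288). *Igf1* had the same rho of 0.905 with *Sstr3* (r = 0.745) and with *Igf1r* (r = 0.785). No relation passed the adjustment, either among the 90 with lists or among the 45 between axis genes.

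*Ghr* and *Igf1* varied with the thalamus list, in opposite directions. *Sstr3* had r = 0.731 (exact permutation p = 0.0367, adjusted p = 0.275) and rho = 0.69 (exact permutation p = 0.0694, adjusted p = 0.625) with it. *Igf1r* had r = 0.711 (exact permutation p = 0.046, adjusted p = 0.275) and rho = 0.619 (exact permutation p = 0.115, adjusted p = 0.66). Without control replicate 1 and POMC-C451Af/f replicate 3, r was 0.225 for *Sstr3* and 0.129 for *Igf1r*. *Sst* also varied against this list, with r = -0.797 (exact permutation p = 0.0179, adjusted p = 0.23) and rho = -0.833 (exact permutation p = 0.0154, adjusted p = 0.327). The r of *Sst* was -0.79 within genotypes and -0.531 without control replicate 1 and POMC-C451Af/f replicate 3. For *Ghr* r was -0.930 (exact permutation p = 0.00117, adjusted p = 0.0526) and rho was -0.952 (exact permutation p = 0.00114, adjusted p = 0.1), with -0.921 within genotypes and -0.879 without control replicate 1 and POMC-C451Af/f replicate 3. For *Igf1* r was 0.834 (exact permutation p = 0.0104, adjusted p = 0.168) and rho was 0.81 (exact permutation p = 0.0218, adjusted p = 0.327), with 0.822 within genotypes and 0.666 without the same pools. *Igf1* also varied against the hypothalamus list, with r = -0.859 (exact permutation p = 0.00734, adjusted p = 0.168) and rho = -0.643 (exact permutation p = 0.0962, adjusted p = 0.66). This r was -0.808 within genotypes and -0.465 without the same 2 pools. It was -0.667 to -0.942 without single pools, settings chosen after seeing the data. *Ghr* with the hypothalamus list had r = 0.756 (exact permutation p = 0.0281, adjusted p = 0.265) and rho = 0.714 (exact permutation p = 0.0576, adjusted p = 0.576). Without control replicate 1 and POMC-C451Af/f replicate 3 this r was 0.543. The summed level of the thalamus list was 234, 150, 420 and 276 CPM in POMC-C451Af/f and 111, 407, 180 and 187 CPM in controls. All 6 of its genes were fitted higher in POMC-C451Af/f, with a median of 0.26 and none at an unadjusted p under 0.05, and the exact permutation p of the mean of the list was 0.4. With the mean of the thalamus list as a covariate, a setting chosen after seeing the data, the log2 fold change of *Ghr* was -0.013 (edgeR unadjusted p = 0.808, adjusted p = 1) and that of *Igf1* was 0.19 (edgeR unadjusted p = 0.162, adjusted p = 1). With the 2 pools highest in that list left out, also chosen after seeing the data, *Ghr* was at -0.15 (edgeR unadjusted p = 0.0366, adjusted p = 0.989) and *Igf1* at 0.30 (edgeR unadjusted p = 0.0513, adjusted p = 0.989), so that the 2 settings moved *Ghr* in opposite directions.

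**Figure D4:**
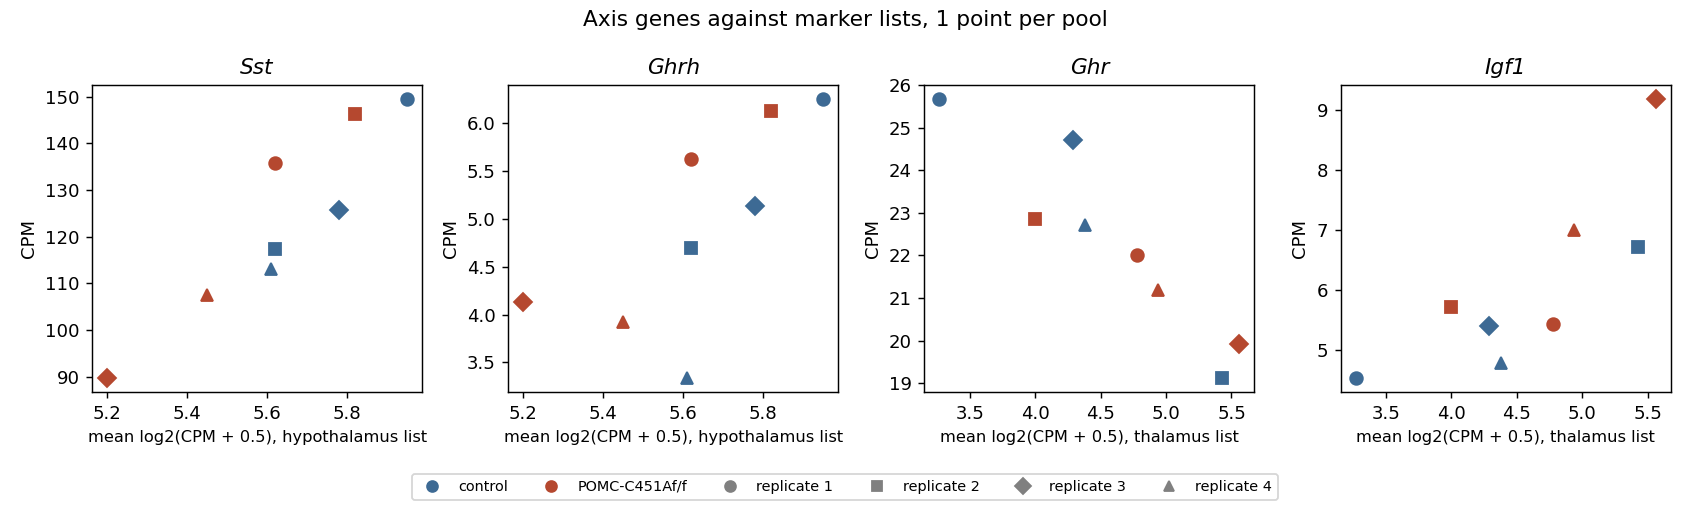
CPM of *Sst* and *Ghrh* against the mean log2(CPM + 0.5) of the hypothalamus list and of *Ghr* and *Igf1* against that of the thalamus list, with 1 point per pool, coloured by genotype and shaped by replicate. *Sst* climbs with the hypothalamus list (r = 0.935) and *Ghr* falls as the thalamus list climbs (r = -0.930).

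The other marker lists held values that also differed between pools. The 8 genes of a list of midbrain dopaminergic neurons all had an unadjusted p under 0.05 and were fitted higher in POMC-C451Af/f, with a median of 1.14. Over all tested genes 2.7% were higher at such a p. Of the 8 genes 0 were called, against 0.0215% of all tested genes. The exact permutation p of the mean of this list was 0.0857, and the genotypes overlapped in its summed level. Their summed level, led by *Aldh1a1*, was 180, 129, 307 and 212 CPM in POMC-C451Af/f and 106, 112, 135 and 148 CPM in controls. With the mean of this list as a covariate the log2 fold change was 0.43 for *Ghrh* and 0.23 for *Sst*, and 0 axis genes were called. Since the list itself was fitted higher in POMC-C451Af/f, such a fit separates genotype from the list poorly. *Sst* had r = -0.72 (exact permutation p = 0.0429, adjusted p = 0.275) and rho = -0.667 (exact permutation p = 0.0831, adjusted p = 0.66) with this list. Of the microglia list, whose cells are a source of *Igf1* in brain, 5 of 6 genes were fitted higher (9399 of 18637 tested genes were), with a median of 0.074. Of these, 2 had an unadjusted p under 0.05 (2.7% of all tested genes were higher at such a p), and 0 were called. The sums were 223, 218, 228 and 215 CPM in POMC-C451Af/f and 213, 210, 210 and 214 CPM in controls, without overlap (2.78% of single tested genes had none). The exact permutation p of the mean of the list, in which the genotypes overlap, was 0.0571. *Igf1* with this list had r = 0.462 (exact permutation p = 0.253, adjusted p = 0.595) and rho = 0.524 (exact permutation p = 0.197, adjusted p = 0.683). This r was 0.105 within genotypes. Without the 2 pools farthest from the median of the list, control replicate 3 and POMC-C451Af/f replicate 3, it was -0.0678. Of the meningeal fibroblast list, led by *Dcn*, 6 of 6 were fitted lower with a median of -0.18 (exact permutation p of the mean 0.714), and the sum reached 72.9 CPM in POMC-C451Af/f replicate 2 and 69.5 and 74.9 CPM in control replicates 1 and 3, against 30.4 to 42.0 CPM in the other pools. *Ghrh* followed that list with r = 0.861 (exact permutation p = 0.00985, adjusted p = 0.168) and rho = 0.81 (exact permutation p = 0.0218, adjusted p = 0.327), 0.892 within genotypes and 0.918 without the 2 pools farthest from its median. The lists of choroid plexus (sums 33.2 to 42.4 CPM, 4 of 7 tested genes higher), striatal neurons (sums 150 to 178 CPM, led by *Pde10a*, 5 of 6 higher) and cortical and hippocampal neurons (sums 19.0 to 63.6 CPM, led by *Slc17a7*, 2 of 5 tested genes higher) had medians of 0.088, 0.039 and -0.007. The anterior pituitary list summed to 1460 CPM in control replicate 1 and to 18.4 to 225 CPM elsewhere, with 5 of 5 tested genes fitted lower and a median of -0.63 (exact permutation p of the mean 0.8). No gene of any list was at 0 in all pools. Of the lists of this paragraph, only midbrain and choroid plexus were held as covariates. The part of the others in the values of the axis genes was not tested. With the cortical and hippocampal list *Ghr* had r = -0.832 (exact permutation p = 0.0112, adjusted p = 0.168) and rho = -0.738 (exact permutation p = 0.0458, adjusted p = 0.515). *Igf1* had r = 0.748 (exact permutation p = 0.0295, adjusted p = 0.265) and rho = 0.524 (exact permutation p = 0.197, adjusted p = 0.683) with it. Without the 2 pools farthest from the median of that list, r was -0.535 for *Ghr* and 0.547 for *Igf1*. *Sstr3* had r = -0.803 (exact permutation p = 0.0414, adjusted p = 0.275) and rho = -0.476 (exact permutation p = 0.243, adjusted p = 0.683) with the anterior pituitary list. For *Igf1r* r was -0.78 (exact permutation p = 0.0344, adjusted p = 0.275) and rho was -0.452 (exact permutation p = 0.267, adjusted p = 0.687). Without control replicate 1 and POMC-C451Af/f replicate 4, r was -0.44 for *Sstr3* and -0.802 for *Igf1r*.

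**Figure D5:**
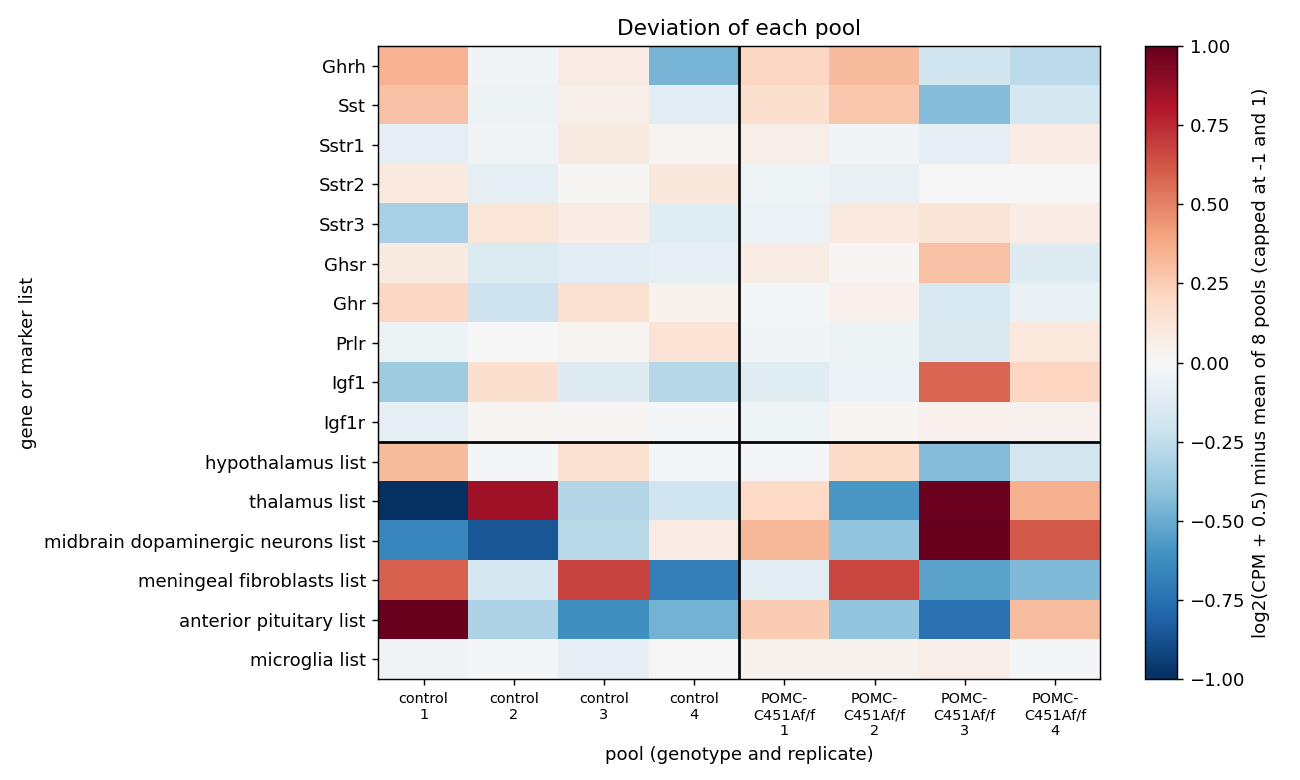
Deviation of log2(CPM + 0.5) of each axis gene, and of the mean of 6 marker lists, from its mean over the 8 pools, with controls to the left and POMC-C451Af/f to the right of the vertical line; colours are capped at -1 and 1. *Ghrh* and *Sst* share the direction of the hypothalamus list in control replicates 1 and 3 and in POMC-C451Af/f replicates 2 to 4, and *Igf1* is highest in POMC-C451Af/f replicate 3, where the thalamus list is high.

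The genes most like each of 3 axis genes over the 8 pools were taken as the 3 highest by Pearson r among 18636 tested genes, as a description with no p since they were picked for their r. For *Ghrh* they were *Tut1* (r = 0.985), *Gstp2* (0.978) and *Ppp1ca* (0.974), and 79 genes had an r over 0.9. For *Sst* they were *Lrpap1* (0.986), *Cckar* (0.978) and *Gsx1* (0.978), with 175 genes over 0.9. *Gsx1* is a homeodomain factor of the arcuate nucleus and *Cckar* a cholecystokinin receptor. For *Prlr* they were *Tle4* (0.982), *Rab22a* (0.969) and *Ubr1* (0.969), with 65 genes over 0.9. With 8 pools, genes of many kinds reach such values.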

How the data were processed

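Hypothalamic RNA was measured in 8 pools, 4 per genotype, grouped by the genotype in the labels. The estimated counts per gene were made and deposited by the authors, who quantified reads with Salmon 1.10 on GENCODE transcripts and summed them to genes with tximport. They are not normalized between pools. A table of the authors' own comparison, holding fold changes and p-values, was not used. The counts were rounded to whole numbers, filtered with filterByExpr (minimum count 10, minimum total count 15), scaled with TMM (factors 0.984 to 1.02) and tested with glmQLFit and glmQLFTest of edgeR 4.0.16 (R 4.3.3). Genotype was the sole model term, with Benjamini-Hochberg adjustment over 18637 genes. A gene was called at FDR 0.05 and an absolute log2 fold change over 0.5. CPM use TMM-scaled totals. Single genes were also tested two-sided by exact permutation of log2(CPM + 0.5) over all 70 assignments of pools, and correlations over all 40320 pairings. Intervals are at 95%.

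Of the gene identifiers, 51424 of 55890 matched GENCODE M21, which gave symbols and lengths. Its positions and the RefSeq promoter windows are on GRCm38, while the authors' annotation is on GRCm39, and no coordinates were converted. The count pipeline was tested on simulated data. Counts of any 2 pools differed beyond sampling noise (chi-square over its degrees of freedom at least 4.61), so each was counted as its own library. The labels name no batch.

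The members and lists were chosen with earlier results of these data known. Besides the 10 axis genes, the text names, of each pathway list, called genes or else the 2 of lowest p, and the most abundant gene; the most abundant gene of each marker list but one; the 3 genes most like *Ghrh*, *Sst* and *Prlr*; and *Esr1* and *Pomc*. Other genes named were chosen after their values were seen. Alternatives were DESeq2 1.42.0, other scalings, other filters, a replicate block, covariates, each pool left out, the FDR threshold alone, merged exon length and a pseudocount of 1. Covariates of the hypothalamus and thalamus lists, and leaving out both pools highest in the thalamus list, were chosen after seeing the data. So was leaving out single pools for *Pomc*, for *Esr1* and for the r of axis genes with the hypothalamus and thalamus lists.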

Additional observations from a re-analysis of the deposited data

Results flagged for a closer look

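In 62 groups of 4 pools, covering the axis genes, the named genes of the pathway lists and the means of the marker lists, 4 groups had a pool far from the other 3, and chance gives about 1 in 20 groups (3.1 here). 3 of the 4 concern control replicate 1. *Gh* was at 410 CPM in that pool and at 4.52 to 23.5 CPM in the other controls, a gap of 0.953 of the whole range. *Prl* was at 1013 CPM and at 10.7 to 68.8 CPM, a gap of 0.942. The mean log2(CPM + 0.5) of the anterior pituitary list was 3.33 and 0.75 to 1.05, a gap of 0.883. The fourth was *Socs2* in POMC-C451Af/f replicate 3, at 16.7 CPM against 12.8 to 13.4 CPM in the other pools of that genotype, a gap of 0.869. None of the 10 axis genes had such a pool in either genotype.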

How the results depend on the processing

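The count of axis genes called was 0 under every setting tried, and the count with exact permutation p under 0.05 was 0 with either pseudocount. With edgeR, the number of axis genes with an unadjusted p under 0.05 went from 0 to 1 without a filter on low counts (*Igf1*), to 1 with the hypothalamus list as a covariate (*Sst*, unadjusted p = 0.00358, adjusted p = 1, within 0.67 to 1 over its settings) and to 1 with both pools highest in the thalamus list left out (*Ghr*). Leaving out single pools gave 0 to 2, the 2 being *Ghr* and *Igf1* without control replicate 2, and *Igf1* alone without POMC-C451Af/f replicate 1 or 2. Over all genes, 4 were called in the main setting, 12 by DESeq2, 2 with at least 10 counts in every pool, 2 with a replicate block, and 4 to 5 without a single pool. Pools sharing a replicate number had correlated deviations of 0.14, -0.18, -0.11 and 0.24, and a shared number was not taken as a pair.

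Of 418 log2 fold changes of the axis genes and the named pathway genes under alternatives, 388 kept their sign and 30 did not, and 0 passed both thresholds. The midbrain list was itself fitted higher in POMC-C451Af/f, so a fit that holds it separates genotype from the list poorly. With the midbrain list as a covariate, values of the other sign were 0.23 for *Sst*, -0.0063 for *Sstr1*, 0.67 for *Gh*, 2.01 for *Prl*, 0.016 for *Sstr5*, -0.013 for *Ptpn11* and 0.080 for *Otp*. With the hypothalamus list they were 0.16 for *Sst*, 0.0058 for *Ghr*, 0.97 for *Gh*, 1.53 for *Prl*, 0.064 for *Sstr5* and 0.011 for *Otp*. With the thalamus list they were 0.035 for *Sst*, 0.046 for *Gh*, 0.12 for *Prl* and 0.019 for *Sstr5*. *Ghrh* kept its sign and moved to 0.43 with the midbrain list, 0.30 with the hypothalamus list and 0.15 with the thalamus list. With the choroid plexus list *Ghrh* was -0.046, and with both pools highest in the thalamus list left out *Sst* was 0.0027. Without single pools, *Ghrh* ran from -0.11 to 0.17, *Sst* from -0.19 to 0.039, *Sstr1* from -0.021 to 0.043, *Gh* from -2.52 to 1.098 and *Prl* from -2.39 to 1.35. The cause was not tested. Median log2 fold changes over all tested genes were 0.0009 with TMM, 0.0005 with DESeq2 size factors and -0.0077 with total counts. The r of *Sst* with the hypothalamus list ran from 0.861 to 0.973 without single pools, and that of *Ghr* with the thalamus list from -0.969 to -0.896. Both ranges are from settings chosen after seeing the data.

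With 4 pools per genotype, differences in *Ghrh*, *Sst* and *Igf1* inside their intervals are compatible with the data. *Ghrhr*, *Cort*, *Ghrl*, *Leap2* and *Mboat4* were too scarce to test. Counts were assigned by the authors' annotation and pools average 2 animals.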
